A study of Danio rerio with 12 samples.

Results

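The finTRIM genes (symbols beginning with ftr) form a family of tripartite motif (TRIM) genes that expanded in bony fishes. The members examined here were the rows whose zebrafish symbol is ftr followed by a number and whose estimated counts summed to 10 or more over the 12 kidney libraries of the study. Of 72 such symbols in the RefSeq gene table, 71 had a row in the deposited tables and 70 met the count, among 27407 genes that met it and 30238 genes in all. The row that did not was ftr55, with no count in any library. Nearest to the limit were ftr69, with a total of 12, and ftr39p, with 22.4. Members were thus selected on their total count, which is no finding. The rule uses no genotype label, but 9 of the 12 libraries were from pdx1 heterozygous kidneys. A scarce copy could therefore meet it through that group.

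TRIM proteins are built from a RING finger, B-box domains and a coiled coil, and many act as ubiquitin ligases. Many finTRIM proteins also carry a B30.2 domain, through which TRIM proteins recognise other proteins. The family was first described in trout as genes induced by virus, and its genes lie in tandem clusters of close copies. Such copies can differ in number between individual fish. Type I interferons are the antiviral cytokines that switch on a broad set of defence genes, and ftr83 is the finTRIM best known for raising interferon expression in fish.

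Whole kidneys of adult zebrafish were compared between 3 wild-type samples and 9 samples heterozygous for a knockout of pdx1, a homeobox gene of pancreas and beta cell development. The labels gave no strain, exact age, sex, batch or family, and did not say whether a sample was 1 fish, so a p-value reflects only how much these samples vary, which may be technical. The zebrafish kidney holds nephrons and the main blood-forming tissue. In such bulk RNA, fewer cells of a type and less RNA per cell cannot be told apart.

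Libraries held 16041392 to 19483852 estimated counts in heterozygous and 17192503 to 17953311 in wild-type samples. Transcripts of pdx1 were at 14, 10 and 6 counts in the wild-type samples and between 0 and 10 in the heterozygous samples. All 10 kidney tubule markers were detected, with a summed level of 8003 to 9693 CPM in wild type and 5389 to 9132 CPM in heterozygous kidneys. Markers of 2 neighbouring organs stood out in single libraries. Hepatocyte markers summed to 1028 CPM in heterozygous replicate 4, against 34.9 to 165 CPM in the other libraries. Exocrine pancreas markers summed to 94.0 CPM in heterozygous replicate 8 and 39.1 CPM in replicate 4, against 9.37 to 18.2 CPM elsewhere. The annotated ribosomal RNA gene took 4.1% to 5.64% of counts in wild type and 5.71% to 9.10% in heterozygous libraries, so it moved with genotype and the groups did not overlap.

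Most of the family was present in the kidney at mean levels under 10 TPM. Mean levels over the 12 libraries were 10 TPM or more in 10 members, 1 to 10 TPM in 40 and under 1 TPM in 20, with a median of 2.66 TPM over the 70. TPM is scaled for transcript length, so levels of different genes can be compared in it. In every library 60 of the 70 members had more than 3 estimated counts, the floor used here for a count of 0. Between 3 and 7 members per library were at or under that floor. Of the 70 members, 3 are annotated as transcribed pseudogenes.

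**Figure D1:**
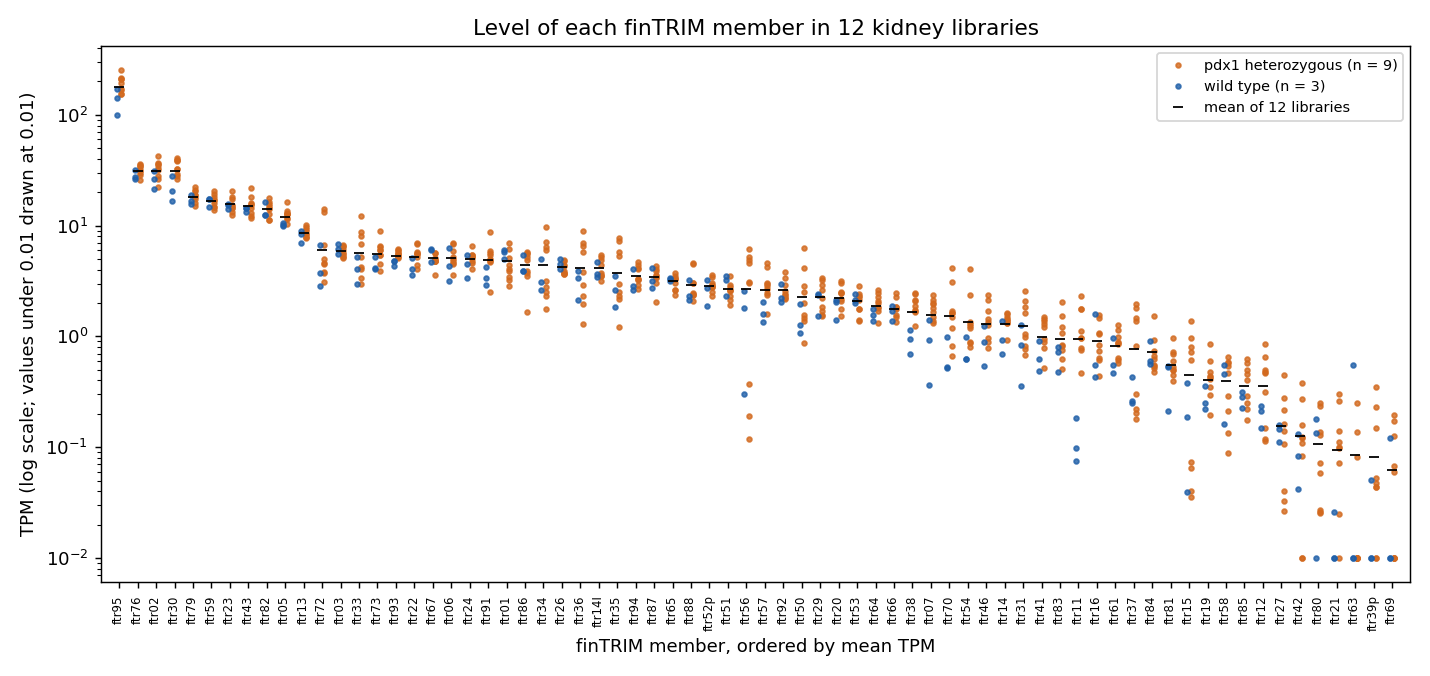
Level of each of the 70 finTRIM members in TPM on a log axis, ordered by the mean of 12 libraries (black bar), with wild-type (blue, n = 3) and pdx1 heterozygous (orange, n = 9) libraries as points and values under 0.01 drawn at 0.01. A single gene, ftr95, lies far above the others. Among members detected in all 12 libraries, points spread most widely at ftr56, ftr15 and ftr11.

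A single copy, ftr95 (Entrez 100005532), dominated the family. It averaged 179 ± 40.3 TPM (SD, n = 12), with a range of 100 to 252 TPM, and no other member's highest library reached its lowest. It made up 26.4% to 35.0% of the family's summed TPM in wild type and 31.2% to 39.7% in heterozygous kidneys. Next came ftr76, ftr02 and ftr30, at 31.1 ± 3.51, 30.9 ± 6.34 and 30.8 ± 7.57 TPM (SD, n = 12). The order of these 3 lay within their spread.

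The remaining members above 10 TPM were ftr79, ftr59, ftr23, ftr43, ftr82 and ftr05, with means from 18.2 down to 12.1 TPM. Neighbours in that order differed by less than the larger of their SDs. Of the copies studied by name, ftr82 was at 14.1 ± 2.17 TPM (SD, n = 12), ftr36 at 4.15 ± 2.37, ftr83 at 0.952 ± 0.459 and ftr84 at 0.721 ± 0.294. The interferon-raising copy ftr83 thus stood among the less abundant members. Its level was 1.29, 0.795 and 1.30 CPM in wild type and 0.932 to 3.28 CPM with a median of 1.51 in heterozygous kidneys. The groups overlapped (log2 fold change 0.66 ± 0.38, approximate SE; adjusted p = 0.929 in edgeR's quasi-likelihood test). Genotype values of ftr82 and ftr84 were smaller still, with log2 fold changes of 0.11 ± 0.15 and 0.12 ± 0.35 (edgeR, adjusted p = 0.999 for both).

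Estimated counts divide reads that fit several transcripts. In 45 of the 70 members the estimate was not a whole number in any library (tolerance 0.001), and in 8 it was whole in all 12. The share over all genes is not given here, so these counts are not a trait particular to the family. Levels of close copies are therefore uncertain, and reads of 1 copy may be credited in part to another. Among the members described below, ftr70 was whole in all 12 libraries, ftr57 not whole in 1, ftr56 in 2 and ftr11 in 6. Estimates of ftr93 were not whole in 7, those of ftr12 in 10 and those of ftr15 in 11. Not whole in all 12 were those of ftr33 to ftr38, ftr30, ftr95, ftr50, ftr05, ftr07, ftr22 and ftr72.

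The genotype comparison asked whether finTRIM levels differed between wild-type and pdx1 heterozygous kidneys. Levels tended to be higher in heterozygous kidneys across the family, but in edgeR no single member passed the adjusted threshold of 0.05. Mean CPM was higher in heterozygous kidneys for 62 of the 70 members and lower for 8, where 52.7% of the 27407 genes were higher. Among the 62 were scarce copies that met the total count through the heterozygous libraries. Examples are ftr21, with 1 count in wild type and 43 in heterozygous samples, and ftr39p, with 1 and 21. The family's summed TPM overlapped between the groups, at 420.4, 489.8 and 379.9 in wild type and 454.0 to 635.2 in heterozygous kidneys. Without ftr95 the sums also overlapped, at 277.6, 318.5 and 279.7 TPM against 293.8 to 399.0 TPM. The low-count filter left 64 members in the test. The 6 outside it (ftr42, ftr80, ftr21, ftr63, ftr39p and ftr69) never exceeded 11 counts in a library.

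Of the 64 tested members, 0 were called in edgeR, where 0.00421% of all genes tested were called. At an unadjusted p under 0.05 there were 14, or 21.9%, all higher in heterozygous kidneys. Over all genes tested 5.68% had such a p and 3.14% were also higher. DESeq2 called 3 of 64, or 4.69%, all higher, where it called 0.173% of all genes as higher. The median log2 fold change was 0.38 over the 64 and 0.01 over all genes tested, with 57 of the 64 above 0. Fitted with the level (log2 CPM) of the ribosomal RNA gene as a covariate, the median was 0.16 and 44 of the 64 were above 0. The mean share of ribosomal RNA was 5.11% in wild type and 7.72% in heterozygous libraries, so this fit cannot fully separate it from genotype. The covariate was the scaled level of the gene, which is not the share itself. Its part in the difference was not tested. Without heterozygous replicates 4 and 8, the libraries with liver or pancreas markers, the median was 0.42 and 58 were above 0, an alternative chosen after the data were seen. Markers of T and NK cells leaned the same way, with 9 of 10 above 0, a median of 0.49 and 2 at an unadjusted p under 0.05, both higher (edgeR called 0 and DESeq2 1). Medians of the other blood cell lists were -0.01 for B cells, 0.01 for macrophages, -0.08 for neutrophils, and -0.06 for both erythroid cells and thrombocytes. At an unadjusted p under 0.05 (edgeR) were 3 of 10 macrophage markers, 1 higher and 2 lower. Also at such a p, all lower, were 2 of 8 neutrophil, 1 of 8 B cell and 1 of 7 thrombocyte markers. Of the 7 erythroid markers, 0 had such a p. In these lists edgeR called 0, and DESeq2 called 1 macrophage and 1 thrombocyte marker. Summed erythroid markers ran from 4033 to 21330 CPM in wild type and 4870 to 20360 CPM in heterozygous kidneys. Neutrophil markers ran from 1592 to 3765 CPM and 1507 to 3686 CPM. The part of T and NK cells or other cell types in the family's levels was not tested.

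**Figure D2:**
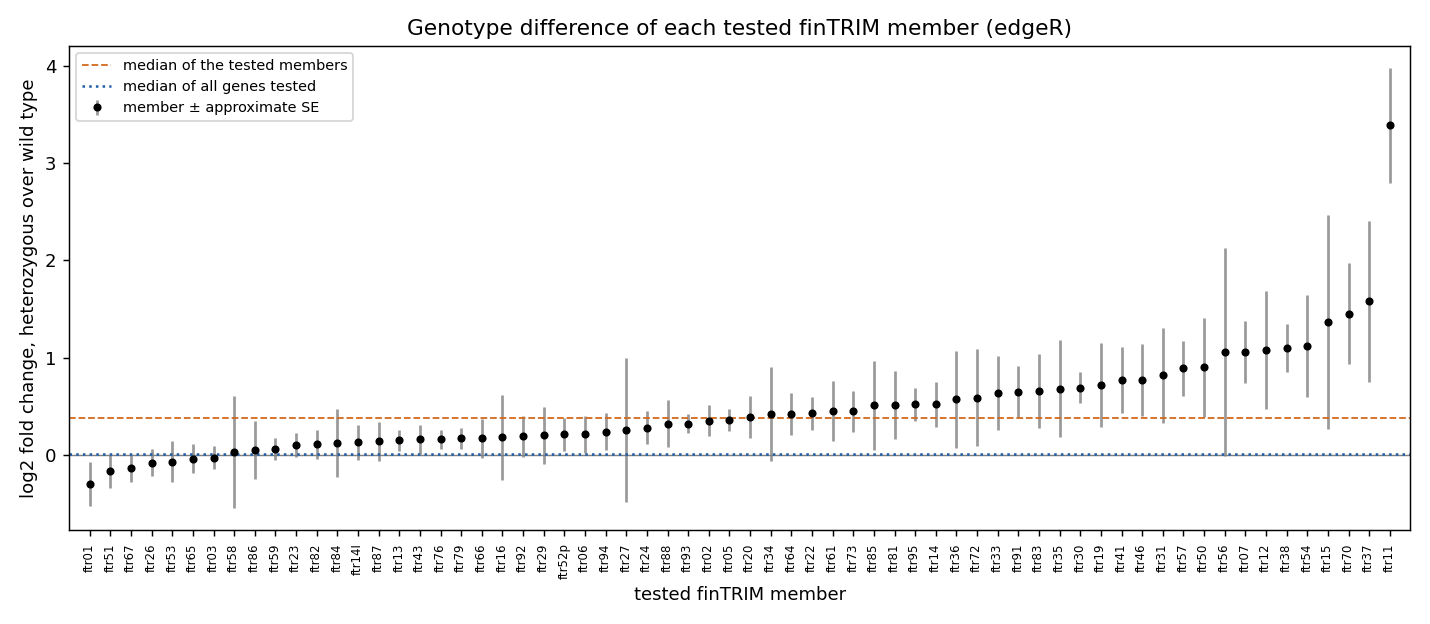
Log2 fold change (heterozygous over wild type, edgeR) of each of the 64 tested finTRIM members with its approximate SE, and the medians of the tested members (0.38, dashed) and of all genes tested (0.01, dotted). Points lie above 0 for 57 members, and ftr11 at 3.39 is far from the rest.

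In 5 of the 70 members, or 7.14%, every heterozygous library lay above every wild-type library, where 0.631% of the 27407 genes showed this. They were ftr11, ftr38, ftr30, ftr05 and ftr93. The reverse was seen in 0 members and in 0.628% of all genes.

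The widest separation was that of ftr11 (Entrez 569723). It had 4, 7 and 3 estimated counts in wild-type replicates 1 to 3, or 0.234, 0.397 and 0.162 CPM. Heterozygous replicates 1 to 9 had 45, 65, 17, 75, 34, 29, 40, 108 and 40 counts, or 2.48, 3.98, 1.04, 4.37, 1.82, 1.61, 2.26, 5.62 and 2.29 CPM. The gene was thus at the floor of 3 counts in wild-type replicate 3, a little above it in replicates 1 and 2, and well above it in all 9 heterozygous kidneys, over a wide range among them. The log2 fold change was 3.39 ± 0.59 (approximate SE; edgeR, adjusted p = 0.242; DESeq2, adjusted p = 2.15e-05). On the log2(TPM + 1) scale, which compresses low genes, it was 0.94 (limma-trend, adjusted p = 0.424). Its next neighbour in the gene order, ftr12, had 0.409 to 0.5676 CPM in wild type and 0.278 to 2.20 CPM in heterozygous kidneys, and these groups overlapped.

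The 3 heterozygous kidneys with most and the 3 with least ftr11 were also those with the highest and lowest score of a list of interferon-stimulated genes that holds no finTRIM. Averaging the centred log2 CPM of the 31 tested genes gave a score of 0.66, 0.50 and 0.29 in heterozygous replicates 2, 4 and 8, where ftr11 was highest. The score was -0.23, -0.15 and -0.01 in replicates 5, 3 and 6, where ftr11 was lowest, and 0.21 to 0.27 in replicates 1, 7 and 9. In wild type it was -0.49, -0.72 and -0.60. The summed level of the list did not follow this order, since replicate 8, with most ftr11, had 698.6 CPM, below replicates 6 and 9 at 733.9 and 791.8 CPM. The score of replicate 8, at 0.29, was itself only just above that of replicates 1 and 7, at 0.27. This comparison was chosen after the values were seen, and the part of these genes in the level of ftr11 was not tested. The 2 libraries with most ftr11, replicates 8 and 4, were also those with raised pancreas or liver markers, whose part was not tested. Without both, ftr11 had a value of 3.04 (edgeR, adjusted p = 0.365).

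A pair of copies in 1 tandem cluster made up the other DESeq2 calls. The level of ftr38 was 1.05, 1.59 and 1.30 CPM in wild type and 1.76, 3.0, 2.32, 3.84, 3.10, 3.23, 2.83, 2.66 and 2.63 CPM in heterozygous replicates 1 to 9. Every heterozygous library was above every wild-type one, with replicate 1 the closest (log2 fold change 1.1 ± 0.25, approximate SE; edgeR, adjusted p = 0.514; DESeq2, adjusted p = 0.0390). For ftr30, among the 4 most abundant members, levels were 47.6, 59.7 and 36.0 CPM in wild type. Heterozygous replicates 1 to 9 had 85.0, 91.2, 82.7, 78.2, 60.9, 82.8, 68.1, 67.8 and 76.8 CPM. The groups came closest at wild-type replicate 2 and heterozygous replicate 5 (log2 fold change 0.69 ± 0.16, approximate SE; edgeR, adjusted p = 0.514; DESeq2, adjusted p = 0.0198). Fitted with the ribosomal RNA level, the value was 0.38 for ftr30, 1.27 for ftr38 and 2.82 for ftr11. Over the other fits and samples left out, adjusted p ran from 2.15e-05 to 0.9998 for ftr11, from 0.0390 to 0.9998 for ftr38 and from 0.0198 to 0.9998 for ftr30 (edgeR, limma and DESeq2).

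The 10 members with the smallest p also included ftr07, ftr57, ftr05, ftr93, ftr95, ftr70 and ftr22, which had log2 fold changes of 1.06, 0.89, 0.36, 0.32, 0.52, 1.45 and 0.43 (edgeR, adjusted p from 0.694 to 0.821; DESeq2 called 0 of these). Fitted with the ribosomal RNA level, the values were 0.61 for ftr07, 0.60 for ftr57, 0.24 for ftr05 and 0.29 for ftr93. In that fit they were 0.25 for ftr95, 0.55 for ftr70 and -0.00 for ftr22. On the log2(TPM + 1) scale they were 0.59 for ftr07, 0.56 for ftr57 and 0.67 for ftr70. Without wild-type replicate 3 that of ftr95 was 0.32. The dominant copy ftr95 was at 305, 337 and 198 CPM in wild type and between 327 and 486 CPM with a median of 401 in heterozygous kidneys. Heterozygous libraries were above all 3 wild-type libraries in 7 of 9. Levels of ftr05 were 26.0 to 28.4 CPM against 30.1 to 44.4 CPM, and those of ftr93 were 8.01 to 8.34 CPM against 8.96 to 11 CPM, so both groups were apart by small margins. Relative to its lowest value, ftr70 had the widest heterozygous range of these, from 0.781 to 4.47 CPM against 0.540 to 1.02 CPM in wild type.

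**Figure D3:**
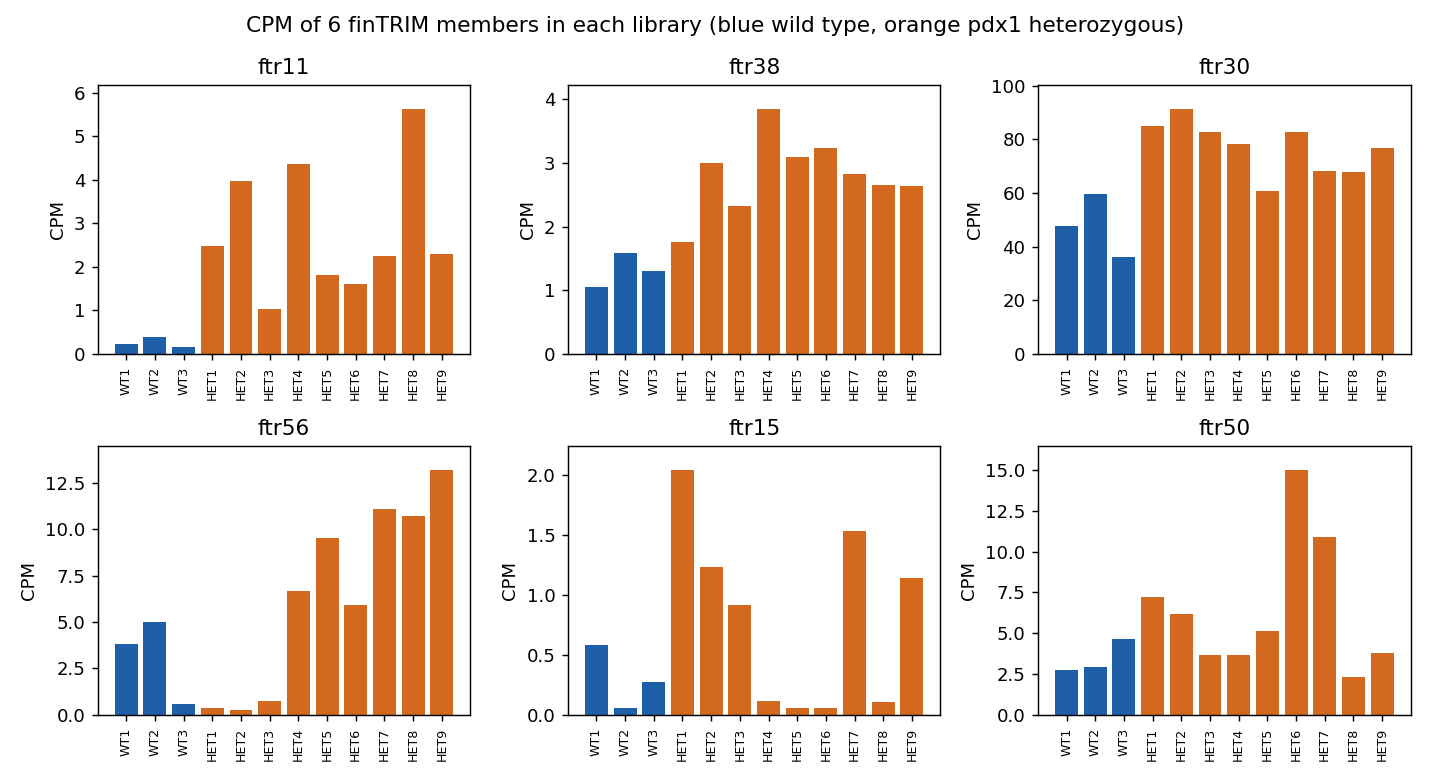
CPM of 6 finTRIM members in each library (WT, wild-type replicates 1 to 3, blue; HET, pdx1 heterozygous replicates 1 to 9, orange), each bar 1 library. The wild-type bars of ftr11, ftr38 and ftr30 are all below the heterozygous ones, while ftr56, ftr15 and ftr50 vary among libraries of the same genotype.

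All-or-none copies were few. A copy was called so when at least 1 library had 3 counts or less and at least 1 had 30 or more. This held for ftr11 and ftr15, 2 of 70 or 2.86%, where 3.5% of the 27407 genes met it, so the share was near that of all genes. The count was 1 without wild-type replicate 3 or heterozygous replicate 1, and 6 where 10 counts sufficed as present (12.1% of all genes).

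In ftr15 (Entrez 571427), wild-type replicates 1 to 3 had 10, 1 and 5 counts. Heterozygous replicates 1, 2, 3, 7 and 9 had 37, 20, 15, 27 and 20 counts, and replicates 4, 5, 6 and 8 had 2, 1, 1 and 2. The copy was thus at or under the floor of 3 counts in 1 wild-type and 4 heterozygous kidneys, and above it in the rest, though only just in wild-type replicate 3, with wild-type levels inside the heterozygous range (log2 fold change 1.37 ± 1.1, approximate SE; edgeR, adjusted p = 0.967). Fitted with the ribosomal RNA level, the value was -2.08. With each sample left out it ran from 0.90, without wild-type replicate 2, to 2.23, without wild-type replicate 1.

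Levels in 2 separate ranges were shown by ftr56 (Entrez 561680), 1 of 70 or 1.43%, where 1.12% of the 27407 genes met the rule. That rule asked for a gap of at least 2 on the log2(CPM + 0.2) scale with 2 or more libraries on each side. Wild-type replicates 1 to 3 had 65, 88 and 11 counts, or 3.80, 4.99 and 0.594 CPM. Heterozygous replicates 1, 2 and 3 had 7, 4 and 12 counts, or 0.386, 0.245 and 0.733 CPM. Replicates 4 to 9 had 115, 179, 106, 196, 206 and 231 counts, or 5.90 to 13.2 CPM. Both genotypes therefore held kidneys with much and with little of this copy. The gap was 2.1 on that scale, just over the limit, and on the log2(TPM + 0.2) scale no member met the rule. Genotype groups overlapped (log2 fold change 1.06 ± 1.07, approximate SE; edgeR, adjusted p = 0.986). With each sample left out the value ran from 0.56, without wild-type replicate 3, to 1.58.

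The genes on either side of ftr56 did not have such ranges. The phosphatase gene ptpn2b was between 18.8 and 27.4 CPM in all 12 libraries. On the other side seh1l, a nuclear pore gene, had 29.8, 29.7 and 29.2 CPM in heterozygous replicates 1, 2 and 3 and 37.1 to 55.3 CPM in the other 9 libraries. These low values were in the 3 heterozygous libraries that also had little ftr56, but not in wild-type replicate 3.

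Variation between kidneys was otherwise graded. The highest CPM was at least 4 times the lowest in 19 of the 64 tested members, or 29.7%, where 22.4% of all genes tested showed this. In 20 members it was less than 2 times. Among the steady members were ftr76, with 69.5 to 91.9 CPM, and ftr59, with 35.8 to 48.8 CPM.

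Copies next to each other sometimes varied together. The members lay on 12 chromosomes of the RefSeq assembly, with 36 of the 70 on 1 chromosome and 1 on the chromosome that carries pdx1. Neighbours are those of this assembly (GRCz12tu), and their order may differ in GRCz11, the build listed for the counts. In a tandem run on the first of these, ftr33, ftr34, ftr35 and ftr36 had the same 4 highest libraries, heterozygous replicates 1, 2, 3 and 7. In those libraries ftr36 was at 9.03, 12.6, 9.41 and 8.54 CPM. It was at 3.10, 4.54 and 5.29 CPM in wild type and at 1.98 to 5.50 CPM in heterozygous replicates 4, 5, 6, 8 and 9. The gap between these libraries recurred in ftr35 (8.31 to 11.7 CPM against 1.98 to 5.13 CPM), ftr34 (9.17 to 14.4 CPM against 2.79 to 7.02 CPM) and ftr33 (10.5 to 17.7 CPM against 4.56 to 7.26 CPM).

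The next copy in the row ran the other way. The level of ftr37 was 0.551, 0.368, 0.367 and 0.339 CPM in heterozygous replicates 1, 2, 3 and 7. It was 3.78, 1.55, 2.39, 3.44 and 2.52 CPM in replicates 4, 5, 6, 8 and 9. Replicates 4 and 8, the highest, were also those with raised liver or pancreas markers, whose part was not tested. Wild-type kidneys, at 0.818, 0.454 and 0.432 CPM, were low for ftr37. For ftr33 to ftr36 they were also below heterozygous replicates 1, 2, 3 and 7. None of these copies was called between genotypes (edgeR, adjusted p from 0.910 for ftr37 to 0.991 for ftr34; at an unadjusted p under 0.05 there were 0 of these 5, and DESeq2 called 0).

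**Figure D4:**
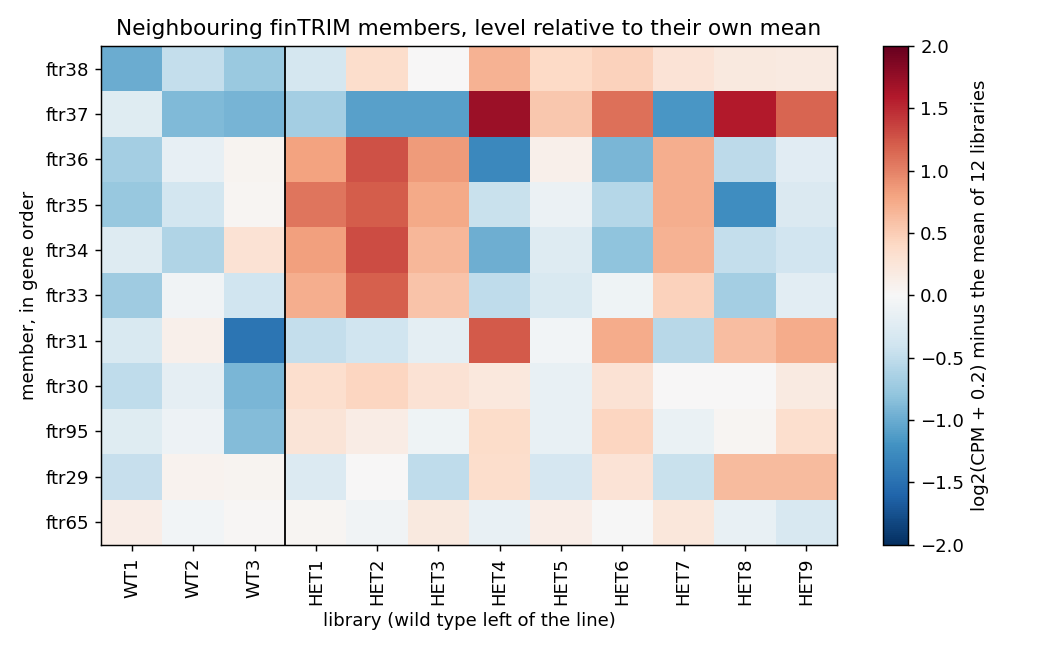
Log2(CPM + 0.2) of 11 finTRIM members relative to their own mean over 12 libraries, in gene order within 1 tandem run (genes of other families in the run are not drawn), with the 3 wild-type libraries left of the line and heterozygous replicates 1 to 9 right of it. From ftr36 to ftr33, replicates 1, 2, 3 and 7 are high, and ftr37 is low in the same libraries.

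As a measure of such agreement over the whole family, 2 of 25 pairs of neighbouring tested members, or 8.0%, had the same 4 highest libraries, where 1.36% of 19013 neighbouring pairs of tested genes did. This comparison was chosen after the values were seen, and both pairs came from the run of ftr33 to ftr35. Estimates of these copies were not whole in any of the 12 libraries, so reads may be divided among them. The part of such division in their agreement was not tested. Elsewhere, ftr95 and ftr29, ftr43 and ftr50, ftr03 and ftr06, and ftr11 and ftr12 shared 3 of 4. All other pairs shared 2 or fewer. Both the pair of ftr37 and ftr36 and the pair of ftr29 and ftr65 shared 0.

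The 5 libraries with most ftr15, which include the 4 with most ftr33 to ftr36, had the 5 highest T and NK cell marker scores. The mean centred log2 CPM of the 10 T and NK cell markers was 0.58, 0.79, 0.35, 0.40 and 0.41 in heterozygous replicates 1, 2, 3, 7 and 9. It was -0.20, -0.44, -0.14 and -0.76 in replicates 4, 5, 6 and 8, and -0.74, 0.11 and -0.36 in wild type. All 10 markers were detected, with summed levels of 67.5 to 107 CPM in wild type and 74.8 to 182 CPM in heterozygous kidneys. Heterozygous replicate 9, with a score above those of replicates 3 and 7, was low for ftr33 to ftr36, at 6.52, 4.35, 4.01 and 4.35 CPM. By summed level heterozygous replicate 7, at 93.1 CPM, was within the wild-type range and below heterozygous replicate 6, at 108.5 CPM. This comparison was chosen after the values were seen. The part of these markers in the finTRIM levels was not tested.

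Another copy, ftr50, chosen after its values were seen, was highest in a different pair of kidneys. It had 14.97 and 10.9 CPM in heterozygous replicates 6 and 7 and 2.29 to 7.21 CPM in the other 10 libraries. The gene next to it, LOC100330744, had 207 and 197 counts in the same 2 libraries and 4 to 55 counts in the others. Both genes were thus raised in the same pair of heterozygous kidneys. Likewise ftr72 was at 18.1 and 17.3 CPM in heterozygous replicates 1 and 2 and at 3.52 to 9.37 CPM elsewhere.

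Other TRIM genes and the interferon pathway were read beside the family, in lists chosen with earlier results of these data known. In edgeR 0 members of the lists below were called. For comparison, 52.7% of the 27407 genes had a higher mean CPM in heterozygous kidneys, and the median log2 fold change of all genes tested was 0.01. Genes with a trim symbol numbered 56 in the test, 42 of them with a value above 0 and 14 below, and their median was 0.12 on the log2 scale. Unadjusted p was under 0.05 in 4 of them, 3 higher and 1 lower, a share near the 5.68% of all genes tested. The smallest p was that of trim35-14, at 0.234, 0.738 and 1.08 CPM in wild type and 1.12 to 5.88 CPM in heterozygous kidneys (log2 fold change 2.22 ± 0.56, approximate SE; edgeR, adjusted p = 0.538; DESeq2, adjusted p = 0.0171). Values were smaller for the other 2 with the smallest p, trim36 at 0.40 and trim16 at 0.65 on the log2 scale. DESeq2 called 1 of the list, against 0.247% of all genes. The ubiquitin ligase gene trim25, an activator of the RNA sensor RIG-I in mammals, was at 49.7 ± 1.62 CPM (SD, n = 3) and 52.5 ± 5.59 CPM (SD, n = 9).

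Bloodthirsty-related TRIM genes, another family that expanded in fish, had higher levels in 13 of 15 tested members, with a median log2 fold change of 0.27 and 4 at an unadjusted p under 0.05, all higher, where 3.14% of all genes tested were. Values of btr18, btr09 and btr26 were 2.39, 0.89 and 0.56 (edgeR, adjusted p from 0.565 to 0.727; DESeq2 called 0 of the list).

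Among interferon-stimulated genes 29 of 31 had higher levels, with a median log2 fold change of 0.79 and 20 at an unadjusted p under 0.05, all higher, against the same 3.14%. DESeq2 called 4 of these, against 0.247% of all genes. For ifi44c2, uba7 and ifi27.2 the values were 1.36, 0.90 and 2.52 (edgeR, adjusted p from 0.337 to 0.514). Lists of genes upstream of them had medians closer to 0. The sensors of viral RNA and DNA and their adaptors had 10 of 16 higher with a median of 0.07 and 4 at an unadjusted p under 0.05, all higher, among them ifih1 at 0.34, rigi at 0.64 and dhx58 at 0.72. Interferon receptors and their JAK-STAT partners had 8 of 12 higher with a median of 0.05 and 3 at an unadjusted p under 0.05, all higher, among them irf9 at 0.39, stat1b at 0.57 and stat2 at 0.68 (edgeR, adjusted p from 0.757 to 0.863 for these 6). DESeq2 called 0 of both lists.

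Of 6 interferon ligand genes, 3 were abundant enough to test, all with values above 0 and a median of 0.47. The type II interferon gene ifng1 was at 0.234, 0.5676 and 0.432 CPM in wild type and 0.214 to 2.12 CPM in heterozygous kidneys (log2 fold change 1.63 ± 0.58, approximate SE; edgeR, adjusted p = 0.794). Its lowest library was heterozygous replicate 5, and the groups overlapped. The type I interferon genes ifnphi2 and ifnphi1 had 0.47 ± 0.33 and 0.01 ± 0.39 on the log2 scale (edgeR, adjusted p = 0.947 and 0.9999; DESeq2 called 0 of the list).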

How the data were processed

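RNA of 12 adult kidney samples was sequenced on the BGISeq-500 platform, per the labels. The submitters' processing notes list Trim Galore 0.6.4 as a tool, along with kallisto (given as 0.4.6) and build GRCz11. Other settings are not given in the sources used here. Deposited by the authors were estimated counts, not normalized, and TPM values, for 30238 Entrez genes. RefSeq (assembly GRCz12tu) named 25812 of them and gave the gene order, which may differ from that of GRCz11. Counts were rounded, filtered with filterByExpr of edgeR 4.0.16 (minimum count 10, leaving 23732 genes), scaled by TMM and tested with the quasi-likelihood F test in R 4.3.3, all 12 samples in 1 fit, with Benjamini-Hochberg adjustment over all genes tested. CPM used the TMM-scaled totals. SEs of log2 fold changes are the value divided by the square root of F. Alternatives used DESeq2 1.42.0, limma 3.58.1 and sva 3.50.0. Simulated data were used to test the edgeR step. No pair of libraries agreed within sampling noise (lowest chi-square per gene 17.3). A floor of 3 counts covers counting error only. Members and lists were chosen with earlier results of these data known. Named members were the 10 highest in mean TPM, the 10 with the smallest p, the all-or-none and 2-range copies, and ftr36, ftr82, ftr83 and ftr84, with their neighbours. Other lists gave the 3 smallest p. Further genes were named after their values were seen. No sequences were used here.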

Additional observations from a re-analysis of the deposited data

Results flagged for a closer look

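Of 22 named members examined, 2 had a heterozygous library far from the other 8 (Dixon's test, 9 samples). Chance alone marks about 1 in 20. In ftr05, heterozygous replicate 2 had 44.4 CPM, with the next at 36.9 CPM and the lowest at 30.1 CPM. In ftr84, the same replicate had 3.43 CPM, with the next at 2.02 CPM and the lowest at 1.05 CPM.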

How the results depend on the processing

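The count of genes called over all genes was 1 in edgeR, 60 in DESeq2, 3 with limma-trend on log2(TPM + 0.1) and 0 with the replicate numbers as a block, and 1 to 4 with each sample left out (2 without heterozygous replicate 2, 4 without replicate 5). Members called were 0 in edgeR and 3 in DESeq2, and 0 with each sample left out. Same-numbered samples did not deviate together (correlations of -0.22, -0.16 and 0.10). Whether the numbers mark pairs or batches cannot be told from 3 such values, and replicates 4 to 9 have no wild-type counterpart. Members above 0 numbered 44 to 58 of 64 over all alternatives. Of 16 members followed, 11 kept their direction in every fit. The exceptions were ftr22 at -0.00 and ftr15 at -2.08 with the ribosomal RNA covariate, ftr56 at -2.47 and ftr82 at -0.01 with the replicate block, and ftr84, from -0.08 to 0.35 with each sample left out, below 0 without heterozygous replicate 2. The all-or-none count was 0 where absence meant a count of 0, 1 where presence meant 100 counts, 6 where it meant 10, and 1 to 2 with each sample left out. Copies in 2 ranges numbered 0 with a gap of 3 and 0 on the TPM scale, and 1 with each sample left out. With the replicate block, replicates 4 to 9 have no wild-type sample, so genotype values in that fit rest on replicates 1 to 3. For ftr56, heterozygous replicates 1, 2 and 3 had 7, 4 and 12 counts. Beyond that, the cause of these shifts was not tested. Low counts limit ftr15 and the 6 untested members.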
